A study of Mus musculus with 28 samples.

Results

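The genes described here encode histone-modifying enzymes, the proteins that add or remove acetyl and methyl groups on histones. Members were chosen by gene symbol alone: the lysine demethylases (Kdm1 to Kdm8), the Mll (Kmt2) and Setd families, Ezh1 and Ezh2, the Ehmt, Suv39 and Suv420 genes, the zinc-dependent deacetylases (Hdac), the sirtuins (Sirt), the Kat acetyltransferases and the arginine methyltransferases (Prmt). The rule found 73 members among the 23420 gene symbols in the files. Of these, 72 had enough counts to be tested, and Prmt8 had 0 counts in all 28 libraries. The files list 8 members under older symbols: Mll1 is now Kmt2a, Mll2 is Kmt2d, Mll3 is Kmt2c, Mll5 is Kmt2e, Setd8 is Kmt5a, Suv420h1 is Kmt5b, Suv420h2 is Kmt5c and Prmt10 is Prmt9.

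Histone marks are set by writers and taken away by erasers. Acetyl groups, placed by acetyltransferases and removed by deacetylases and sirtuins, mark open and active chromatin. Methyl groups have a meaning that depends on the residue: H3K4 methylation marks enhancers and promoters, H3K36 methylation marks transcribed gene bodies, and H3K27 and H3K9 methylation mark silenced chromatin. In regulatory T (Treg) cells, which restrain immune responses and depend on the transcription factor Foxp3, several of these enzymes are known regulators. Ezh2 maintains the identity of activated Treg cells, Kat5 acetylates Foxp3, and Hdac9 is a class IIa deacetylase whose loss in mice increases Treg suppressive function.

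RNA was measured by sequencing of sorted CD4 T cell populations from male mice of 6 to 8 weeks that carried a gfp reporter in Foxp3. KO mice carried the Foxp3-deltaCNS3-gfp allele, which lacks conserved non-coding sequence 3, an enhancer in a Foxp3 intron, and WT mice carried the wild-type Foxp3-gfp allele. The reporter allele was thus shared by all groups. For each of 4 populations there were 4 KO and 3 WT libraries: splenic Treg cells that the titles call aTreg, splenic Treg cells called rTreg, thymic Treg cells, and thymic CD4 single-positive cells that were not Treg cells (CD4SP). The titles do not expand a and r; the activated Treg markers Klrg1, Icos, Cxcr3, Ccr8 and Gzmb summed to 2509 ± 157 CPM in KO aTreg and 418 ± 43.6 CPM in KO rTreg cells. The design text speaks of 2 littermates and the labels do not say which libraries share a mouse, so p-values measure only the spread between these libraries, which may be technical.

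Gene counts per library summed to 2.20e+07 to 4.08e+07, and the 73 members took 0.513 to 0.655% of them. Foxp3 averaged 544 ± 73.7 CPM in KO and 652 ± 16.3 CPM in WT thymic Treg cells, and 1.44 ± 0.363 and 3.37 ± 0.131 CPM in KO and WT CD4SP cells. Cd3e was at or above 1395 CPM in every library. KO thymic Treg libraries held more counts of a 12-gene myeloid marker list, 471 to 1054 CPM in sum, than WT thymic Treg libraries at 300.3 to 421 CPM, and replicates 1 and 2 were the highest. KO CD4SP replicate 2 stood apart from its group, with 293 CPM of myeloid and 596 CPM of immature thymocyte markers against at most 107 and 188 CPM in the other KO CD4SP libraries. Some results that rest on these libraries are also given without them. In bulk RNA, fewer cells of a type and less RNA per cell cannot be told apart.

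The members spanned a wide range of expression. Levels between genes are compared per kb of merged exon, as CPM divided by exon length (CPM per kb), averaged over the 28 libraries. Hdac1, a class I deacetylase of the Sin3 and NuRD repressor complexes, was highest at 61.4 CPM per kb, with single libraries between 46 and 79.5. Mll5 followed at 52.1, Sirt2, a largely cytoplasmic NAD-dependent deacetylase, at 52 and the H3K4 demethylase Kdm5a at 51.3 CPM per kb. The library ranges of these 4 overlapped, so their order is not fixed by the data. At the low end stood the H3K9 methyltransferase Suv39h2 at 0.488, Hdac11 at 0.766 and Kdm4d at 0.863 CPM per kb.

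Within classes, the levels per kb were spread unequally. The class names are labels, and the activity of single members, Mll5 among them, was not measured. Among members classed as H3K4 methyltransferases, Mll5 was highest and Setd1a lowest, at 3.4 CPM per kb. The H3K27 methyltransferases Ezh1 and Ezh2 lay side by side at 19.5 and 18.8 CPM per kb, with overlapping library ranges. Ehmt1 led the H3K9 group at 16.3 CPM per kb, Setd8 the H4K20 group at 15.7, Kat7 the acetyltransferases at 29 and Prmt1 the arginine methyltransferases at 29.7. The lowest members with counts in their classes were Suv420h2 at 8.06, Setd6 at 3.32, Kat6b at 4.91, Sirt1 at 4.13 and Prmt6 at 1.82 CPM per kb.

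Most members varied little between the 8 groups. The ratio of the highest to the lowest group mean in CPM had a median of 1.42 over the 72 members. It was under 1.5 for 44 members, 1.5 to 2 for 21 and above that for 7. The 7 were Hdac9 with a ratio of 199, Kdm4d with 11.4, Hdac5 with 2.88, Setd6 with 2.44, Kdm2b with 2.25, and Setdb2 and Hdac10 with 2.17 each.

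Deletion of the Foxp3 enhancer was first examined in thymic Treg cells. There, 11 of the 72 tested members fell in KO against WT cells and 0 rose (edgeR's quasi-likelihood test, Benjamini-Hochberg adjusted p under 0.05 over 13338 genes). Of all tested genes, 9.34% passed in either direction, 5.13% being lower and 4.21% higher, so the members' 15.3% lower lay above the background share. The median log2 fold change was -0.11 over members and 0.02 over all tested genes. The 11 were 4 of 7 H3K4 methyltransferases (Mll1, Mll3, Setd1b, Setd7), 3 of 7 acetyltransferases (Kat2b, Kat6a, Kat6b), 2 of 17 demethylases (Kdm3a, Kdm5b), the H3K36 methyltransferase Setd2 and the H4K20 methyltransferase Suv420h1. None of the 11 zinc-dependent deacetylases, 7 sirtuins, 7 tested arginine methyltransferases, 6 H3K9 and 2 H3K27 methyltransferases passed in edgeR's test.

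**Figure D1:**
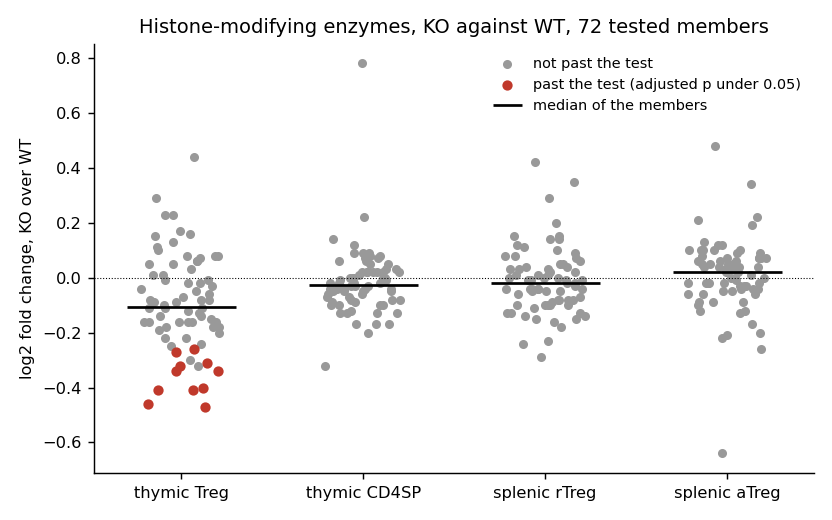
Log2 fold change of KO over WT for the 72 tested members in each population; each point is 1 member, red points passed edgeR's test and the bar is the median. In thymic Treg cells 11 points passed, all below 0, and in CD4SP, rTreg and aTreg cells 0 passed.

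Mll1, the founding MLL H3K4 methyltransferase, had 279, 329, 322 and 351 CPM in KO thymic Treg libraries, against 481, 429 and 411 CPM in WT thymic Treg libraries. Every KO library lay below every WT library. The log2 fold change was -0.46 (SE 0.0763, edgeR adjusted p 4.78e-04). Mll3, which methylates H3K4 at enhancers, had 209, 249, 220 and 261 CPM in KO against 341, 324 and 308 CPM in WT libraries, a log2 difference of -0.47 (SE 0.0817, edgeR adjusted p 7.60e-04). The groups again did not overlap. Mll2, the other large enhancer H3K4 methyltransferase, differed by -0.14 on the log2 scale (SE 0.0931) and missed the threshold.

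Suv420h1, which di- and trimethylates H4K20, had the smallest p of the members. It had 84.9, 84.6, 86.2 and 89.6 CPM in KO and 111, 113 and 119 CPM in WT thymic Treg libraries (log2 fold change -0.41, SE 0.0611, edgeR adjusted p 1.38e-04). The KO libraries were tightly grouped below all WT libraries. Among erasers, the H3K4 demethylase Kdm5b had 80.8, 103, 95.3 and 91.3 CPM in KO and 124, 124 and 122 CPM in WT libraries, a log2 fold change of -0.41. The H3K9 demethylase Kdm3a had 85.9, 92.1, 84.4 and 108 CPM in KO and 122, 122 and 123 CPM in WT libraries, a log2 fold change of -0.40. Both were lower in every KO library than in any WT library.

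The other 6 fell less, by 0.26 to 0.34 on the log2 scale. Setd2, the main writer of H3K36 trimethylation, had a log2 fold change of -0.34, and its highest KO library, at 131 CPM, reached the lowest WT library, at 131 CPM. The acetyltransferases Kat6b (-0.34), Kat6a (-0.31) and Kat2b (-0.26) passed with adjusted p of 0.0143, 0.0361 and 0.0163 in edgeR. Kat6a overlapped between groups, with 106 to 147 CPM in KO and 141 to 167 CPM in WT libraries. Setd7 (-0.32) and Setd1b (-0.27) had no overlap. Without WT thymic Treg replicate 1 none of these 6 passed, with edgeR adjusted p of 0.0533 for Setd1b to 0.157 for Kat6a. The 61 members that did not pass had log2 fold changes between -0.32 for Kdm4a and 0.44 for Kdm4d. Among them were Ezh2, at 61.8 ± 6.37 CPM in KO and 58.7 ± 3.32 CPM in WT cells, and Hdac9, at 44.0 ± 5.94 CPM in KO and 48.9 ± 10.7 CPM in WT cells (SD, n = 4 and n = 3).

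**Figure D2:**
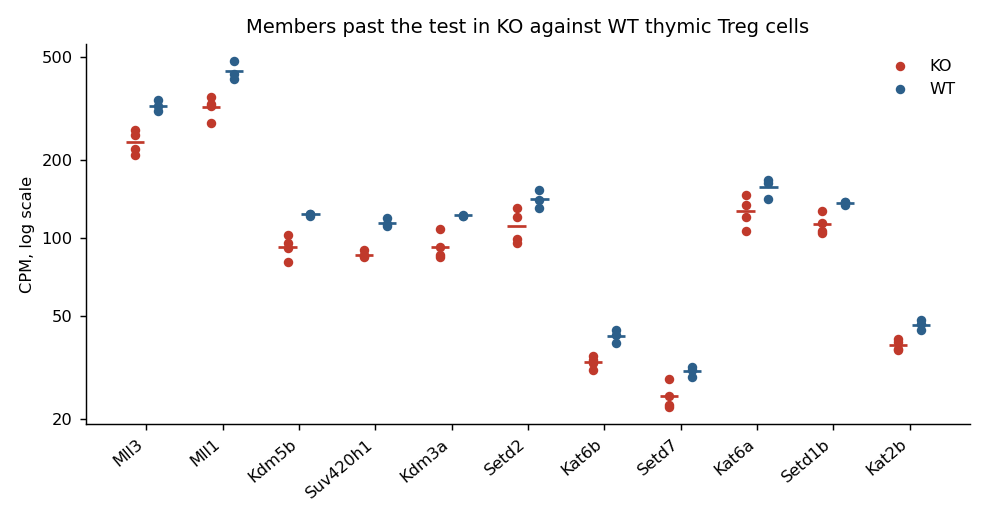
CPM on a log axis of the 11 members that were lower in KO thymic Treg cells; points are libraries (4 KO in red, 3 WT in blue) and bars are group means. The members were chosen for passing this comparison; KO and WT points of Setd2 touch and those of Kat6a overlap.

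By median, the 11 had a longer merged exon length than the other members, though not each of them was long. Their median merged exon length was 8.86 kb (4.65 to 16.5 kb), against 4.12 kb for the other 61 tested members and 3.16 kb for all tested genes. Of members with exons of 6 kb or more, 9 of 22 (40.9%) were lower in KO thymic Treg cells, and of all such genes 14.7% were. Of members of 3 to 6 kb, 2 of 25 were lower, beside 5.67% of all such genes. Of the 25 members under 3 kb, 0 passed in edgeR, beside 1.63% of all such genes. Long members thus passed more often than short ones, as did long genes in general, and the part of length in the result was not tested.

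**Figure D3:**
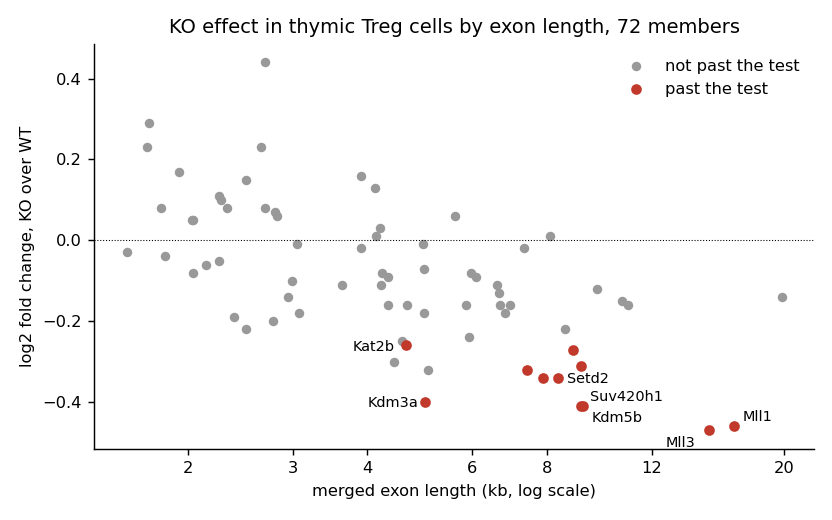
Log2 fold change of KO over WT in thymic Treg cells against merged exon length in kb on a log axis, 1 point per tested member, red where it passed. Mll1 and Mll3 are at the long, low end, and the 25 members under 3 kb hold 0 red points.

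Several library measures moved with genotype in thymic Treg cells. The share of reads outside genes was 42.3 to 45% in KO and 46.3 to 49.3% in WT thymic Treg libraries, without overlap. The summed cell cycle genes were 789 ± 41.6 CPM in KO and 563 ± 74.0 CPM in WT, and the myeloid markers 710 ± 278 CPM in KO and 344 ± 67.2 CPM in WT cells. All 5 activated Treg markers rose in KO thymic Treg cells, with a median log2 fold change of 1.13, and 3 of 6 resting T cell markers fell. With the share outside genes as a covariate, 0 of the 11 passed, their median log2 fold change was -0.19 instead of -0.34, and all 11 stayed below 0, with Mll1 at -0.20, Mll3 at -0.19, Kat6a at -0.05 and Setd2 at -0.03. With the myeloid level as a covariate 7 passed, and Kat2b, Kat6a, Setd1b and Setd7 did not. Without KO thymic Treg replicates 1 and 2, Mll1, Mll3, Suv420h1 and Kdm5b still passed, and without WT thymic Treg replicate 1 these 4 and Kdm3a did. The count of members was 7 without KO thymic Treg replicate 1 and 16 without KO thymic Treg replicate 4, all lower. The share of all tested genes that passed under these settings is not given here. The part of these measures in the result was not tested further.

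Of a list of 69 other histone modifiers and complex subunits outside the symbol rule, 13 were lower and 0 higher in KO thymic Treg cells. Of all tested genes 5.13% were lower and 4.21% higher. The list median was -0.10, and the list was not examined by exon length or with the covariates. Among the 13 were Ash1l, an H3K36 methyltransferase, at 270 ± 33.9 CPM in KO and 347 ± 19.6 CPM in WT cells (log2 fold change -0.36), and Trrap, the scaffold of the Kat5 and Kat2 complexes (-0.35). The acetyltransferases Ep300 (-0.36) and Crebbp (-0.30) and the Ezh2 partner Suz12 (-0.26) were also lower.

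In the other populations, no member passed between KO and WT. In CD4SP cells 0 of 72 passed, beside 0.195% of all tested genes (0.165% higher and 0.0300% lower), and 1 member had an unadjusted p under 0.05 (Kat8, log2 fold change -0.20). In rTreg cells 0 passed, beside 0.135% of all tested genes (0.0825% higher and 0.0525% lower), with 5 at an unadjusted p under 0.05, of which Setd1b (-0.24), Kdm6b (-0.29) and Hdac8 (0.29) had the smallest. In aTreg cells 0 passed, beside 0.0300% of all tested genes (0.0225% higher and 0.00750% lower), and 1 had an unadjusted p under 0.05 (Prmt6, 0.34). Next to it stood Suv39h1 (-0.22) and Ehmt2 (0.19), and in CD4SP cells Kat2b (-0.12) and Prmt5 (-0.17) followed Kat8. The shares of all tested genes are for the adjusted threshold, and the share at an unadjusted p under 0.05 is not given here. DESeq2 and limma voom also gave 0 in each of these 3 populations. Removing KO CD4SP replicate 2 left the CD4SP count at 0. Over the 19 members followed for published roles in Treg cells, log2 fold changes ran from -0.17 to 0.78 in CD4SP, -0.29 to 0.15 in rTreg and -0.22 to 0.19 in aTreg cells. The 0.78 belonged to Hdac9 in CD4SP cells, on counts near 0. Suv39h1 and Hdac6 lie 0.484 and 0.355 Mb from Foxp3 on chromosome X, and neither passed between KO and WT in any population.

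The KO effect itself was then compared between populations. For thymic Treg minus CD4SP, Mll1 was the single member past the threshold, with a difference of -0.49 (SE 0.109, edgeR adjusted p 0.0297), beside 0.615% of all tested genes (0.315% higher and 0.300% lower). Its KO-over-WT log2 fold change was -0.46 in thymic Treg and 0.03 in CD4SP cells, where KO libraries had 296, 279, 343 and 292 CPM and WT libraries 311, 286 and 295 CPM. With the share of reads outside genes as a covariate the difference was -0.20 and did not pass. The call did not hold without KO thymic Treg replicates 1 and 2 (-0.42, adjusted p 0.114), nor without KO CD4SP replicate 3 (0.0699), and held without KO CD4SP replicate 2 (0.0146). Without WT thymic Treg replicate 1 or KO thymic Treg replicate 1 the adjusted p was 0.120 or 0.0709, and without WT CD4SP replicate 2 or 3 it was 0.105 or 0.0605. Suv420h1 (-0.34, edgeR adjusted p 0.0677), Kdm5b (-0.40, 0.0766) and Mll3 (-0.41, 0.0982) came next and did not pass. DESeq2 gave 4 members for this difference. For aTreg minus rTreg 0 members passed in edgeR, beside 0.00% of genes, with 2 at an unadjusted p under 0.05 and 0 in DESeq2 and limma voom. For rTreg minus thymic Treg 0 passed, beside 0.0300% of genes (0.00750% higher and 0.0225% lower), with 10 at an unadjusted p under 0.05, 1 in DESeq2 and 0 in limma voom. The shares of all tested genes are for the adjusted threshold. The share at an unadjusted p under 0.05 is not given here, so those counts have no background beside them. The fall of the other 10 members in KO thymic Treg cells is not shown to differ from CD4SP cells in edgeR's test. Nor is the fall of any of the 11, Mll1 included, shown to differ from rTreg cells. Thymic Treg and aTreg effects were not set against each other.

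The same members were next compared between populations within each genotype, beginning with thymic Treg against CD4SP cells. In KO cells 40 of 72 passed, 16 higher and 24 lower, beside 56.5% of all tested genes (30.0% higher and 26.5% lower). In WT cells 31 passed, 17 higher and 14 lower, beside 48.3% of all tested genes (26.8% higher and 21.6% lower), so neither count stood above the background. Of these, 28 passed in the same direction in both genotypes, 16 higher and 12 lower, which is 70% of the KO and 90.3% of the WT members; of all genes called, 70.8% in KO and 82.8% in WT did so. The zinc-dependent deacetylases had 7 of 11 higher and 2 lower in each genotype, with a median log2 fold change of 0.41 in KO and 0.38 in WT, against 0.01 and 0.03 for all tested genes.

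Hdac9 gave the largest difference of any member in any comparison. It had 47.9, 44, 35.7 and 48.6 CPM in KO thymic Treg libraries, against 0.204, 0.83, 0.07 and 0.575 CPM in KO CD4SP libraries. In WT mice it had 57, 36.7 and 52.9 CPM in thymic Treg libraries, against 0.185, 0.202 and 0.349 CPM in CD4SP libraries. The gene was near absent from CD4SP libraries, with 51 counts over the KO and 26 over the WT group, and all Treg libraries of either organ lay above all CD4SP libraries. The log2 fold change was 6.66 in KO (SE 0.277, edgeR adjusted p 5.33e-18) and 7.59 in WT (SE 0.337, adjusted p 4.21e-17). Without KO CD4SP replicate 2 the KO value was 7.14. The other class IIa enzymes went other ways: Hdac4 was higher (0.34 in KO, 0.38 in WT), Hdac5 was lower (-0.95 in KO, -1.18 in WT), and Hdac7 did not pass.

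**Figure D4:**
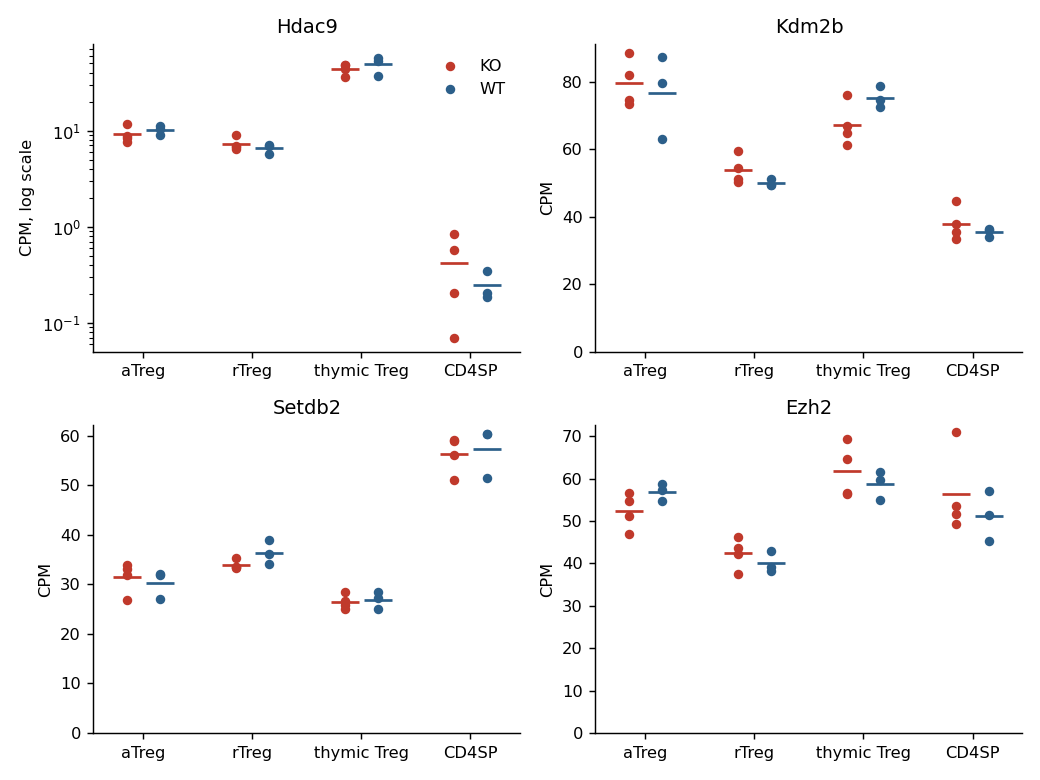
CPM of Hdac9 (log axis), Kdm2b, Setdb2 and Ezh2 in aTreg, rTreg, thymic Treg and CD4SP cells; points are libraries (KO red, WT blue) and bars are group means. Hdac9 is below 1 CPM in CD4SP cells only, Kdm2b is lowest and Setdb2 highest in CD4SP cells, and Ezh2 is lowest in rTreg cells.

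The promoters of Hdac9 are shown because they stand apart from those of most members in base composition, and those of Setdb2 and Ezh2 as members that moved the other way or between splenic populations. Each window holds the 250 bases before and 50 bases after an annotated gene start, from RefSeq on build GRCm38.p6, read 5′ to 3′ on the minus strand, with CG dinucleotides in capitals. The Hdac9 windows are chr12:34917046-34917345 (entry 1) and chr12:34528840-34529139 (entry 2), the Setdb2 window is chr14:59440831-59441130 and the Ezh2 window is chr6:47594981-47595280.
Hdac9 entry 1: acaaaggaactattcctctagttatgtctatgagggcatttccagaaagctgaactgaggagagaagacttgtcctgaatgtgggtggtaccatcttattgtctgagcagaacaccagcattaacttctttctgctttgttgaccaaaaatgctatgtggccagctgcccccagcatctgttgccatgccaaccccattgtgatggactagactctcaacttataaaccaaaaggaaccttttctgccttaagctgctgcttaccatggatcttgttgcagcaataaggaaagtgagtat
Hdac9 entry 2: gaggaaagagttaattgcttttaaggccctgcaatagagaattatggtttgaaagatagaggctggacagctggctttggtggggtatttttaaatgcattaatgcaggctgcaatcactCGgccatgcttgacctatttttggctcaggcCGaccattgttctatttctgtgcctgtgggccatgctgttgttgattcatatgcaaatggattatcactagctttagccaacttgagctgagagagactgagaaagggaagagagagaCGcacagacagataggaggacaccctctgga
Setdb2: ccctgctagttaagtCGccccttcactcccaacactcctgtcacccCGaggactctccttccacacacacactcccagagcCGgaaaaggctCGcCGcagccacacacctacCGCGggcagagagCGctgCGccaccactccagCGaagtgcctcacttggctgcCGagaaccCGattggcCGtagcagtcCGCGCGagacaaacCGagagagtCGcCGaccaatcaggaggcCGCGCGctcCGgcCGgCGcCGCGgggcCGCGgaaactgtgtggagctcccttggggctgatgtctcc
Ezh2: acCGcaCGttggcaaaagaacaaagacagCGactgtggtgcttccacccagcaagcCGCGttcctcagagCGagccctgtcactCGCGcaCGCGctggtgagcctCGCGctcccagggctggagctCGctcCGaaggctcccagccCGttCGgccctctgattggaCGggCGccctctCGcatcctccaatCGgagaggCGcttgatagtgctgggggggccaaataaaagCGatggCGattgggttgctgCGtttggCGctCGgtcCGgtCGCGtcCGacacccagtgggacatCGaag

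The Hdac9 windows held 0 and 3 CG dinucleotides, the Setdb2 window 29 and the Ezh2 window 31. Entries were found for 62 members, with 85 windows in all, and the median was 22 CG dinucleotides per member window against 7 over all 32851 windows. Of the 62, Hdac9 and Setd5 were the 2 whose richest window held at most 3; 5.88% of member windows and 31.4% of all windows held that few. Both strands were searched for the forkhead motif TGTTTAC, which occurred in windows of Hdac7 and Kdm2b (2.35% of member windows and 3.65% of all) and not in those of Hdac9. The E2F motif, spelled TTTCCCGC or TTTGGCGC, occurred in windows of Ezh2, Sirt4 and Suv420h2 (3.53% of member windows and 1.56% of all). A match describes letters and is not a binding site.

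Among the other members higher in thymic Treg than in CD4SP cells was Kdm2b, an H3K36 demethylase that recruits a variant Polycomb complex to CpG islands. It had 64.9, 67, 61.3 and 76 CPM in KO thymic Treg and 33.3, 35.4, 44.6 and 37.7 CPM in KO CD4SP libraries, without overlap (log2 fold change 0.83 in KO, 1.09 in WT). Hdac10, a polyamine deacetylase, was higher by 0.76 in KO and 0.95 in WT, and Prmt2 by 0.73 and 0.74, on the log2 scale. Hdac1 rose modestly, to 156 ± 4.76 CPM in KO thymic Treg against 117 ± 2.41 CPM in KO CD4SP cells (log2 fold change 0.41). The low-level H3K9 demethylase Kdm4d was higher by 2.75 in KO and 1.99 in WT. Sirt3, a mitochondrial deacetylase, was higher by 0.74 in KO and 0.53 in WT.

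The members lower in thymic Treg than in CD4SP cells included Setdb2, a putative H3K9 methyltransferase. It had 25, 25.8, 26.6 and 28.4 CPM in KO thymic Treg libraries, against 56.1, 51, 59 and 59.2 CPM in KO CD4SP libraries. The groups were far apart, with a log2 fold change of -1.09 in KO and -1.10 in WT (SE 0.0792 and 0.0908). Setd6, a methyltransferase of the NF-kB subunit RelA, fell by 0.93 in KO and 1.29 in WT on the log2 scale. The H3K4 demethylase Kdm5a fell by 0.58 in KO and 0.35 in WT, and Setd4 by 0.62 and 0.53. Prmt5, the main symmetric arginine methyltransferase, fell by 0.24 in KO and 0.49 in WT; the KO call ended without KO thymic Treg replicate 1 or 2 or KO CD4SP replicate 3 or 4 (adjusted p 0.0541 to 0.117 in edgeR). Mll1 was higher in WT (0.57) and did not pass in KO (0.08). The difference of these values is the difference of KO effects on Mll1, thymic Treg minus CD4SP, given above.

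Myeloid and B cell markers moved with this comparison as well. The myeloid sum was 710 ± 278 CPM in KO thymic Treg and 146 ± 98.0 CPM in KO CD4SP cells, and 344 ± 67.2 against 100 ± 7.31 CPM in WT cells. Of 8 B cell markers 5 were higher in thymic Treg than in CD4SP cells in each genotype, and 1 was lower in KO. Of 15 cell cycle genes, 6 were lower and 1 higher in KO, and 11 were lower and 0 higher in WT. Their sum was 789 ± 41.6 against 1065 ± 269 CPM in KO and 563 ± 74.0 against 960 ± 81.8 CPM in WT cells. Of 6 immature thymocyte markers 5 were lower in KO and 0 in WT. With the myeloid level as a covariate, 21 members passed in KO and 20 in WT, and Hdac9 kept a log2 fold change of 5.61 in KO cells. Kdm2b, Hdac1, Hdac10, Prmt2, Setdb2, Hdac5, Setd4 and Kdm5a passed in both genotypes with it. Kat5 and Hdac6 passed in neither, Mll2 (0.02), Kdm6a, Sirt1, Sirt3 and Prmt5 (-0.13) no longer in KO, and Kdm4d and Hdac3 no longer in WT. The part of other cells and of the cell cycle in the smaller differences was not tested.

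Splenic rTreg cells were then compared with thymic Treg cells. In KO cells 37 members passed, 24 higher and 13 lower, beside 42.9% of all tested genes (19.6% higher and 23.3% lower). In WT cells 24 passed, 9 higher and 15 lower, beside 30.6% (13.9% higher and 16.7% lower). In both genotypes 17 passed in the same direction, 7 higher and 10 lower, which is 45.9% of the KO and 70.8% of the WT members; of all genes called, 55.8% in KO and 78.3% in WT did so.

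Hdac9 was again the member with the largest difference. It had 8.94, 6.77, 6.84 and 6.36 CPM in KO rTreg libraries, against 35.7 to 48.6 CPM in KO thymic Treg libraries. In WT mice it had 7.1, 5.65 and 6.94 CPM in rTreg libraries, against 36.7 to 57 CPM in thymic Treg libraries. All rTreg libraries lay below all thymic Treg libraries (log2 fold change -2.61 in KO and -2.90 in WT). Ezh2, the catalytic H3K27 methyltransferase of Polycomb repressive complexes, averaged 42.3 ± 3.64 CPM in KO rTreg and 61.8 ± 6.37 CPM in KO thymic Treg cells, a log2 fold change of -0.54 (-0.55 in WT). Kdm6b, an H3K27 demethylase, also fell, by 0.57 in KO and 0.41 in WT. Prmt2 fell by 0.59 and 0.52, Hdac4 by 0.37 and 0.50, and Kdm5b by 0.29 and 0.60, in KO and WT cells.

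Kat2b, a coactivator also called PCAF, was higher in rTreg cells. It had 69.5, 60.3, 66.5 and 67.5 CPM in KO rTreg libraries, against 36.9, 40.7, 37.2 and 39.6 CPM in KO thymic Treg libraries. In WT mice it had 68.4, 64.1 and 70.8 CPM in rTreg and 48.2, 46.5 and 44.2 CPM in thymic Treg libraries. The groups did not overlap in either genotype (log2 fold change 0.77 in KO and 0.55 in WT). Setd6 (0.82 in KO, 1.09 in WT), Setdb2 (0.36, 0.44), Kdm3b (0.49, 0.37) and Sirt7 (0.35, 0.54) were higher in rTreg cells of both genotypes. In KO cells alone, 4 of 7 H3K4 methyltransferases were higher (Mll1 0.21, Mll2 0.25, Mll3 0.43 and Setd7 0.25), and in WT cells 0 of 7 passed. The difference between genotypes did not pass for any of them, and without KO thymic Treg replicate 1 Mll1 (0.15) and Mll2 (0.20) did not pass in KO cells. Mll2 also missed the threshold without KO thymic Treg replicate 2 or KO rTreg replicate 3 or 4 (0.20 to 0.22). The KO thymic Treg libraries used here are those in which Mll1, Mll3 and Setd7 were lower than in WT. All 4 have exons of 6 kb or more. Of all tested genes that long, 31.6% were higher in rTreg cells in KO and 14.1% in WT. Of those under 3 kb, 14.4% and 14.2% were. The part of length was not tested. Kdm3b did not pass in WT cells without WT rTreg replicate 1 (0.29). Of the marker lists, 6 of 6 immature thymocyte markers were lower in rTreg than in thymic Treg cells of both genotypes, as were 9 of 12 myeloid markers in KO and 8 in WT. Cell cycle genes were lower too, 13 of 15 in KO and 10 of 15 in WT, and so were activated Treg markers, 5 of 5 in KO and 2 of 5 in WT, while 5 of 8 B cell markers were higher in each genotype. The part of these measures in the result was not tested. With the share of reads outside genes as a covariate 5 members passed in KO, and with the myeloid level 6 did. The share of all tested genes that passed under these settings is not given here. Of 22 members followed under these settings in KO cells, 18 lost the call with each covariate; Kat2b, Hdac9 and Kdm6b passed with both. Hdac9 was at -1.58 in KO with the myeloid level. Ezh2 did not pass in KO with either (-0.33 with the share outside genes and -0.23 with the myeloid level) and passed in WT with both. Mll1 turned to -0.13 with the share outside genes, Mll2 to -0.04 with the myeloid level, and Mll3 did not pass with either (0.05 and 0.25). Kdm3b, Setdb2 and Setd6 did not pass in KO with either covariate.

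The last comparison set aTreg against rTreg cells in the spleen. In KO cells 32 members passed, 10 higher and 22 lower, beside 41.6% of all tested genes, 21.7% being higher and 19.9% lower. In WT cells 28 passed, 7 higher and 21 lower, beside 37.9%, with 19.9% higher and 18.1% lower. The total was near the background, while the calls leaned to the lower side, 30.6% of members in KO and 29.2% in WT. Long genes in general leaned this way too. Of all tested genes with exons of 6 kb or more, 26% were lower in KO and 25.8% in WT. Of those under 3 kb, 15.9% and 13.8% were. Among members of 6 kb or more 22.7% were lower in KO and 40.9% in WT, and among members under 3 kb 32% and 16%. The part of length in the lean was not tested. In both genotypes 21 members passed in the same direction, 6 higher and 15 lower, which is 65.6% of the KO and 75% of the WT members; of all genes called, 73.5% in KO and 80.7% in WT did so.

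Of the 7 H3K4 methyltransferases, 3 fell in aTreg cells in KO and 4 in WT mice. Mll3 had 208, 224, 216 and 216 CPM in KO aTreg libraries, against 313, 309, 319 and 327 CPM in KO rTreg libraries. In WT mice it had 232, 235 and 192 CPM in aTreg and 354, 308 and 358 CPM in rTreg libraries. There was no overlap in either genotype (log2 fold change -0.55 in KO and -0.63 in WT). Mll1 fell by 0.32 in KO and 0.44 in WT, and Mll2 by 0.36 in KO and 0.54 in WT. No member of the class rose in edgeR's test.

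Of the 7 acetyltransferases 4 fell in KO and 3 in WT, and of the 11 zinc-dependent deacetylases 4 fell in KO and 3 in WT. Kat2b averaged 44.1 ± 2.80 CPM in KO aTreg and 66.0 ± 3.96 CPM in KO rTreg cells (log2 fold change -0.58 in KO, -0.53 in WT). Kat2a (-0.37 in KO, -0.43 in WT) and Kat8, the H4K16 acetyltransferase (-0.33, -0.41), also fell. Hdac1 had 93.8, 94.1, 104 and 101 CPM in KO aTreg libraries, against 121, 133, 135 and 120 CPM in KO rTreg libraries, without overlap (-0.37 in KO, -0.39 in WT). Hdac10 (-0.83, -0.71) and the tubulin deacetylase Hdac6 (-0.32, -0.50) were lower as well, and so were the H3K9 demethylases Kdm3a (-0.39, -0.43) and Kdm3b (-0.51, -0.52). The KO call of Hdac6 ended without KO aTreg replicate 3 (-0.27).

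The 6 members higher in aTreg cells of both genotypes were Ezh2, Ehmt2, Setd5, Kdm2b, Kdm4d and Sirt2. Ezh2 had 47, 54.7, 51.2 and 56.5 CPM in KO aTreg libraries, against 37.4, 42.2, 43.6 and 46.1 CPM in KO rTreg libraries. In WT mice it had 54.7, 57.4 and 58.6 CPM in aTreg and 39.2, 38.1 and 43 CPM in rTreg libraries. All aTreg libraries of a genotype lay above its rTreg libraries (log2 fold change 0.31 in KO, adjusted p 0.0123 in edgeR, and 0.50 in WT, adjusted p 6.90e-04). Without KO rTreg replicate 1 the KO value was 0.25 (adjusted p 0.0562 in edgeR). Its paralogue Ezh1 did not pass in any of the 6 comparisons of populations. Kdm2b rose by 0.57 in KO and 0.62 in WT, and the H3K9 methyltransferase Ehmt2 (G9a) by 0.37 and 0.33, while its partner Ehmt1 fell by 0.36 and 0.33. Kdm6b rose in KO (0.32) and did not pass in WT (-0.09), and Hdac9 rose in WT (0.64) and did not pass in KO (0.33); neither difference between genotypes passed. With the myeloid level as a covariate Hdac9 turned to -0.21 in WT cells. In WT cells the Hdac9 call also ended without rTreg replicate 2 or 3 or aTreg replicate 1 or 2 (0.54 to 0.68). The WT calls of Kdm4d (0.74 to 0.86), Setd5 (0.17 to 0.27) and Ehmt2 (0.27) also ended without at least 1 library, among them WT rTreg replicate 2.

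**Figure D5:**
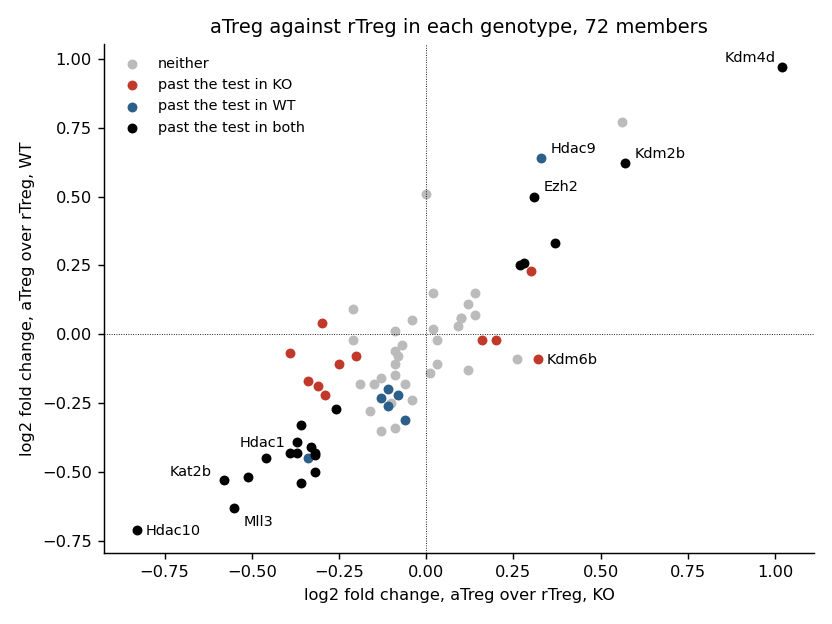
Log2 fold change of aTreg over rTreg cells for the 72 tested members, in KO mice on the horizontal and in WT mice on the vertical axis; colour shows in which genotype a member passed. The 21 black points, 6 higher and 15 lower, passed in both, and none lies in opposite directions.

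Cell cycle genes and myeloid markers also differed between the splenic populations. The cell cycle genes summed to 712 ± 57.0 CPM in KO aTreg and 473 ± 53.8 CPM in KO rTreg cells, and 827 ± 119 against 422 ± 67.1 CPM in WT cells. The myeloid sum was 379 ± 7.82 CPM in KO aTreg and 151 ± 13.8 CPM in KO rTreg cells, and 480 ± 55.1 against 151 ± 4.50 CPM in WT cells. With the myeloid level as a covariate 12 members passed in KO and 10 in WT. Of the 6 members higher in both genotypes, Kdm2b (0.63 in KO, 0.70 in WT) and Sirt2 (0.34, 0.34) passed with it. Ezh2 (0.10, 0.24), Ehmt2 (0.25, 0.19), Setd5 (0.24, 0.22) and Kdm4d (0.63, 0.47) did not pass in either genotype. Among those lower, Mll3, Kat2b, Hdac1 and Kdm3b passed in both genotypes, Mll2 and Kdm3a in neither, and Mll1, Hdac6 and Ehmt1 no longer in KO. With the share of reads outside genes, Ezh2 (0.19), Mll1 (-0.14), Mll2 (-0.24) and Hdac6 (-0.18) did not pass in KO. The part of these measures was not tested. In the list of 69 other histone modifiers, 11 were higher and 18 lower in KO, and 4 higher and 22 lower in WT. Of all tested genes 21.7% were higher and 19.9% lower in KO, and 19.9% higher and 18.1% lower in WT. Whsc1, an H3K36 methyltransferase also called Nsd2, was higher by 0.86 in KO and 1.08 in WT, and the Polycomb subunits Aebp2 (0.57, 0.65) and Jarid2 (0.37, 0.42) were higher too.

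Across the 6 comparisons of populations, Hdac1, Kdm2b and Kdm3b passed in all 6. Hdac1 in WT rTreg over thymic Treg cells passed no longer without WT thymic Treg replicate 1, 2 or 3 or WT rTreg replicate 1 or 3 (-0.17 to -0.10). That Hdac1 call also ended with no filter on low counts, only the groups compared, the replicate block or the myeloid level as a covariate. At the other end, 11 members passed in none: Ezh1, Hdac11, Kat7, Kdm4b, Mll5, Prmt1, Prmt6, Setd1a, Setd1b, Setd8 and Suv39h2. Mll5 was among the most highly expressed per kb, while Hdac11 and Suv39h2 were the lowest, where counting error is larger. Of 19 members followed in every comparison for published roles in Treg cells, Hdac3 passed in 2 of the 6 (0.26 in KO and 0.17 in WT thymic Treg over CD4SP cells) and Prmt1 in none. The WT call of Hdac3 ended without WT thymic Treg replicate 1 or 2 or WT CD4SP replicate 1 or 3 (0.15 to 0.18). It also ended with no filter on low counts and with only the groups compared. Kat5 rose in thymic Treg over CD4SP cells (0.33 in KO, 0.39 in WT) and fell in KO aTreg over rTreg cells (-0.25). This last call ended with median-ratio size factors and with either covariate. It also ended without KO rTreg replicate 2 or 3 or KO aTreg replicate 1, 2 or 3 (-0.25 to -0.20). Sirt1 passed in KO comparisons only, at -0.43 for thymic Treg over CD4SP and 0.30 for rTreg over thymic Treg cells, and the difference between genotypes did not pass. The rise of Sirt1 in rTreg cells ended with either covariate and without KO thymic Treg replicate 1 or 3 or KO rTreg replicate 4 (0.24 to 0.25). It also ended with only the groups compared. Kdm6a, the X-linked H3K27 demethylase, was lower in KO thymic Treg than in KO CD4SP cells (-0.31) and higher in KO rTreg than in KO thymic Treg cells (0.28). With the myeloid level as a covariate neither passed (-0.18 and 0.15), and with the share outside genes the second was 0.00. Suv39h1, a writer of H3K9 trimethylation, was lower in KO rTreg than in KO thymic Treg cells (-0.30) and in KO aTreg than in KO rTreg cells (-0.29). With the share outside genes as a covariate the first turned to 0.13, and with the myeloid level neither passed. The first call ended without KO rTreg replicate 1 or 4, and the second without KO rTreg replicate 2 or 3 or KO aTreg replicate 1 (-0.28 to -0.22). Hdac7, a class IIa deacetylase, was higher in rTreg than in thymic Treg cells (0.24 in KO, 0.23 in WT, where the call ended without WT thymic Treg replicate 3 or WT rTreg replicate 1). With the myeloid level as a covariate Hdac7 passed in neither genotype. Setdb1, which silences retroelements, was higher in KO rTreg than in KO thymic Treg cells (0.36) and lower in KO aTreg than in KO rTreg cells (-0.34); with the myeloid level as a covariate neither passed (0.24 and -0.26).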

How the data were processed

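Per the submitters' processing notes, reads were processed with Trimmomatic, STAR and HTSeq on build mm10; no source used here gives versions, the annotation or the use of strand. The authors deposited raw counts per gene symbol, 1 file per library, not normalised. Lines that name no gene stayed out of library sizes: reads outside genes were 42.3 to 49.7% and ambiguous reads 0.608 to 0.763% of uniquely placed reads, and multimapped alignments 22.8 to 30.4% of all lines' counts. Without stated strand, members that overlap another annotated gene, among them Mll1, Suv420h1, Setd7, Setd1b, Ezh2 and Kdm2b, may share its reads. Per the labels, littermates were sorted at the same time and libraries were made in parallel after SMART amplification.

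Genes were tested with the quasi-likelihood test of edgeR 4.0.16 (R 4.3.3), TMM factors of 0.970 to 1.04 and filterByExpr, which kept 13338 genes; 1 fit of the 28 libraries held a mean for each group (20 residual degrees of freedom, biological coefficient of variation 12.7%). P-values were adjusted by Benjamini-Hochberg over these genes and called under 0.05. Levels in CPM use library sizes multiplied by the TMM factors and are given as mean ± SD. Libraries of a group differed beyond sampling noise (chi-square per degree of freedom 7.08 to 37.6 over 36 pairs). The script was tested on simulated counts.

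The members and lists were chosen with earlier results of these data known. Named members were 19 with published roles in Treg cells, the 8 members higher and the 8 lower with the smallest p in each comparison, the 3 with the smallest p where fewer passed, and the highest and lowest of each class per kb; any other member named was picked after its values were seen. Exon lengths and positions come from the reference annotation. Same-numbered libraries deviated together, with every correlation over 0.1, in thymic Treg against CD4SP in WT (0.107 to 0.133). They also did in aTreg against rTreg in KO (0.121 to 0.232), so the numbers were taken to pair both comparisons. In the other comparisons they were not. The reported values and calls of all comparisons come from the fit without pairing, and the replicate block was run as an alternative. Alternatives were median-ratio size factors, no filter, DESeq2 1.42.0, limma 3.58.1 with voom, only the groups compared, a replicate block, the share outside genes or the myeloid level as a covariate, and leaving out libraries.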

Additional observations from a re-analysis of the deposited data

Results flagged for a closer look

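Over 54 named members, 216 groups of 4 KO libraries were examined for a library far from the others by Dixon's criterion, and 8 were found, where chance alone gives about 1 in 20 groups. In KO rTreg replicate 2, Hdac4 was at 45.2 CPM (next 42.8) and Hdac6 at 23.2 CPM (next 21.1), and in KO rTreg replicate 4 Setdb2 was at 35.3 CPM (next 33.6), each the highest of its group. Kdm2a was the highest of its group at 104 CPM in KO thymic Treg replicate 4 (next 91.9) and at 130 CPM in KO aTreg replicate 2 (next 117). In KO thymic Treg replicate 2, Setd5 was the highest at 53.7 CPM (next 42.1) and Suv39h1 the lowest at 44.1 CPM (next 50.7). Hdac7 was the lowest at 109 CPM in KO aTreg replicate 1 (next 114).

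The KO effect on Mll1 differed between thymic Treg and CD4SP cells by -0.49 (edgeR adjusted p 0.0297), with a range of -0.53 to -0.20 over the alternatives. The call was lost under 8 of 23 alternatives. Among these were only the groups compared (edgeR adjusted p 0.133) and the share outside genes as a covariate (edgeR adjusted p 0.984).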

How the results depend on the processing

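Counts of members that passed stayed within 1.5 times of the reported count under each alternative run, with these exceptions. For KO against WT in thymic Treg cells, 11 became 7 with only the groups compared, 4 without KO thymic Treg replicates 1 and 2, 0 with the share outside genes and 7 with the myeloid level as a covariate; leaving out each library gave 5 to 16. The myeloid covariate gave 21 in KO and 20 in WT for thymic Treg against CD4SP cells, 12 in KO and 10 in WT for aTreg against rTreg, and 6 in KO for rTreg against thymic Treg, where the share outside genes gave 5. Both covariates move with the groups, so they also remove part of a group difference. For the difference of KO effects, thymic Treg minus CD4SP, 1 became 4 in DESeq2, 0 with only the groups compared, without KO thymic Treg replicates 1 and 2 and with the share outside genes, 2 with the myeloid level, and 0 to 4 without each library. For rTreg minus thymic Treg, DESeq2 gave 1. The shares of all tested genes under these settings are not given here, so the changes cannot be called particular to the members. The cause of these changes was not tested.

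With the replicate block, 14 members passed in KO against WT thymic Treg cells; 10 of the 11 were kept and Setd7 was lost. In the paired comparisons the block gave 35 for thymic Treg against CD4SP in WT and 33 for aTreg against rTreg in KO, and every reported call was kept. Where numbers did not pair, the block lost 1 further call, Hdac1 in rTreg against thymic Treg in WT.

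Of 131 results of named members, 60 that passed did so under every alternative, 71 lost the call under at least 1 and 6 reversed. Under the myeloid covariate Mll2 became 0.02 in thymic Treg against CD4SP in KO and -0.04 in rTreg against thymic Treg in KO, and Hdac9 -0.21 in aTreg against rTreg in WT. Under the share outside genes, in rTreg against thymic Treg in KO, Mll1 became -0.13, Suv39h1 0.13 and Kdm6a 0.00. Without KO thymic Treg replicates 1 and 2 together, Mll1, Mll2 and Sirt1 lost the call in rTreg against thymic Treg in KO. With the same libraries left out, Mll2 and Prmt5 lost the call in thymic Treg against CD4SP in KO. Depth limits Hdac11, Suv39h2, Kdm4d and Hdac9 in CD4SP cells, which rest on few counts.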
